A study of Mus musculus with 27 samples.

Results

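Gene expression in C2C12 cultures was compared between 18 h and 24 h after a serum pulse, the second 6 h interval of a time course that ran from 12 h to 60 h. C2C12 is a mouse myoblast line that exits the cell cycle and fuses into multinucleated myotubes when serum is lowered. The comparison is between 6 of the 27 libraries of the series, 3 at 18 h and 3 at 24 h, with the spread estimated over all 27. It covers 12687 of the 20446 genes in the table, which are all those that passed a filter on low counts. In this interval 124 genes rose and 112 fell. The genes of cholesterol synthesis and uptake rose almost as a block, with 19 of 25 tested members called and a median of 0.66 on the log2 scale. The amino acid response genes of the transcription factor ATF4 moved the other way, with 12 of 31 tested members lower at 24 h and none higher. Of 25 genes of mitosis and the spindle, 7 were lower and none higher.

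Both groups were the same line under the same treatment and differed in the time of harvest alone. Myoblasts were grown in 10% FBS, plated in wells, switched to 2% horse serum at about 90% confluence to differentiate, and given 50% horse serum for 2 h. A brief pulse of concentrated serum is a standard way to set the circadian clocks of cultured cells to a common phase. No culture without the pulse was analysed here, so time after the pulse and time in differentiation medium cannot be told apart. The labels do not say if the 3 replicates of a time point were grown as separate cultures. The p-values therefore reflect the spread among replicate libraries, which may be technical. That spread was estimated over all 27 libraries of the series, not over those of both groups alone. A fit to the libraries of both groups alone called 12 genes in place of 236. The same libraries, paired by replicate number, gave 813 called genes, among them 233 of the 236. Without that pairing, most calls depend on the spread at the other time points.

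Total RNA was depleted of ribosomal RNA and sequenced as stranded libraries, and the 6 libraries held between 19065875 and 24092419 counted reads. Of the variance among the 6 libraries, 39% lay along a first principal component that set both number 2 libraries apart from the other 4. The second component, with 22.8%, separated 18 h from 24 h. Levels are given as CPM, the reads of a gene scaled to a common library size after TMM scaling. Myotube markers were abundant at both times. Their 10 genes, among them Myog, Myh3 and Ckm, summed to between 13400 and 15900 CPM at 18 h and between 13000 and 14800 at 24 h, and none was called. The 8 markers of reserve cells and myoblasts summed to 406 to 433 CPM and 412 to 433 CPM, and 1 of them, Cd34, fell (-0.36, adjusted p = 0.0428), a call lost without any 1 of the 6 libraries (adjusted p between 0.065 and 0.208). The 12 markers of immune and endothelial cells summed to between 3.36 and 4.35 CPM. Adgre1 and Cd3e, markers of macrophages and T cells, had no read. The myeloid markers Cd68, Itgam and Csf1r had 132, 69 and 53 reads over the 6 libraries, and the endothelial markers Vwf and Tek 110 and 95. In bulk RNA, fewer cells of a type and less RNA per cell cannot be told apart.

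A gene was called when its p from edgeR's quasi-likelihood test, adjusted over all genes tested by Benjamini and Hochberg's method, was under 0.05. The 124 higher genes were 0.977% of those tested and the 112 lower genes 0.883%, so any list is read against about 1 gene in 100 in each direction. Most called changes were small: 14 of the higher and 9 of the lower genes changed at least 2-fold. The median over all genes tested was 0.00146 on the log2 scale. That median is signed and taken after TMM scaling, so rises and falls cancel and it does not measure their size. Same-numbered libraries of the 2 times deviated together, and with the replicate number as a block 354 genes (2.79%) were higher and 321 (2.53%) lower. All 236 genes called without the block were called with it, in the same direction, and 98 of them kept their call without any 1 of the 6 libraries. Among the 6 libraries alone 9 genes were higher and 3 lower, and with the block in that smaller fit 441 and 372. Leaving out replicate 1 of 18 h gave 76 higher and 65 lower genes, and leaving out replicate 1 of 24 h gave 73 and 68. Without replicate 3 of 24 h 60 genes were lower, and without the 9 libraries numbered 2 the counts were 82 and 54.

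**Figure D1:**
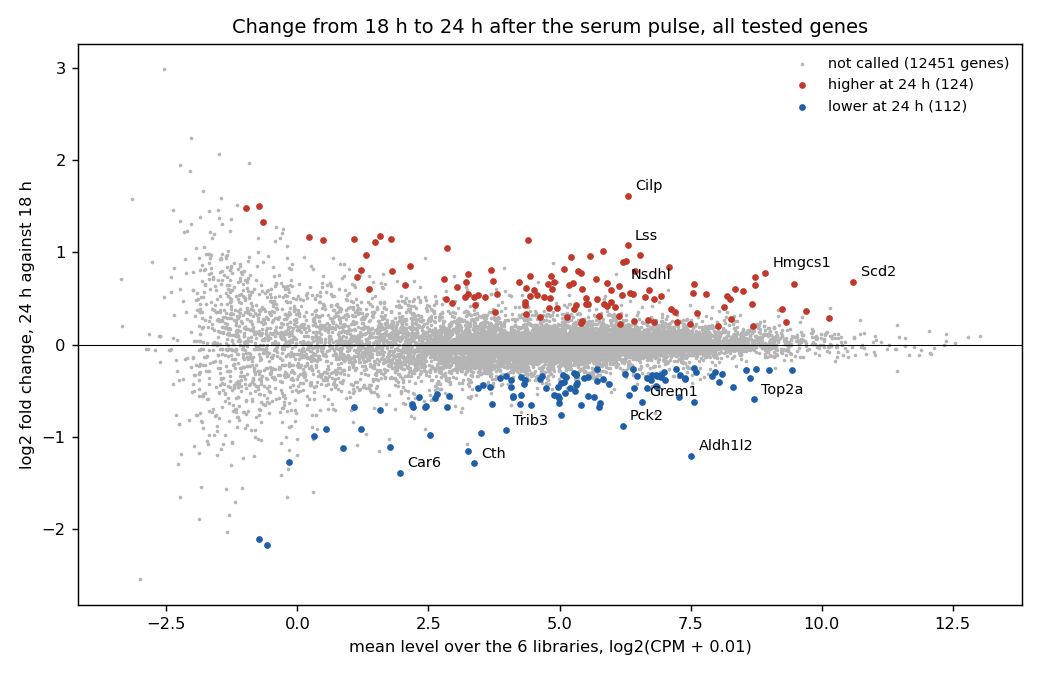
Log2 fold change from 18 h to 24 h of each of the 12687 tested genes (vertical axis) against its mean level over the 6 libraries on a log2 scale of CPM (horizontal axis). The 124 higher genes are red, the 112 lower genes blue and those without a call grey, and Cilp has the largest rise among called genes of at least 1 CPM.

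Cells sense cholesterol at the endoplasmic reticulum, where INSIG proteins hold the SREBP transcription factors until sterols run low. Released SREBP2 then switches on genes that build cholesterol from acetyl-CoA or take it up from outside the cell. Of the 25 genes on this list 19 rose, against 0.977% of all genes, and none fell. All 25 fold changes were positive, from 0.28 to 1.13 on the log2 scale. In 24 of the 25, every 24 h library lay above every 18 h library, which held for 5.07% of all genes tested. With the replicate block 24 members were called. Leaving out any 1 of the 6 libraries left 17 to 20 called members. In the 6 libraries alone 5 were called, and all 25 with the block in that fit.

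Called members lay at early and late steps of the pathway. Near its start, Hmgcs1, which makes HMG-CoA, stood at 350, 435 and 289 CPM at 18 h and at 641, 640 and 559 CPM at 24 h. Its log2 fold change was 0.78 ± 0.11 SE (adjusted p = 0.000107, edgeR, n = 3 libraries per time here and below). The lowest 24 h library of Hmgcs1 was above its highest 18 h library. Idi1, which interconverts the isoprenoid building blocks, went from 13.1, 17.8 and 8.77 CPM to 31.9, 31.8 and 23.2 CPM (1.13 ± 0.23, adjusted p = 0.00807). Its groups did not overlap, but the call was lost without replicate 3 of 18 h (adjusted p = 0.0619) or replicate 1 of 24 h (adjusted p = 0.0542).

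The enzymes that commit carbon to sterols and then fold and trim the ring gave the smallest p-values of the list. Fdft1, squalene synthase, rose by 0.80 ± 0.06 on the log2 scale, and Sqle, which oxidises squalene, by 0.66 ± 0.06. Lss, which closes the ring to lanosterol (chromosome 10, 76531588 to 76557138, plus strand), stood at 52.2, 58.0 and 41.8 CPM and then at 111, 104 and 105 CPM, a 2.11-fold rise (1.08 ± 0.09, adjusted p = 5.29e-08). The 24 h libraries of Lss lay close together and far above the 18 h libraries. Nsdhl, a later demethylation enzyme (chromosome X, 72918557 to 72958514, plus strand), stood at 50.5, 56.6 and 48.8 CPM and then at 103, 94.1 and 91.5 CPM, and its adjusted p of 8.95e-09 was shared with Cilp and Angpt4 as the smallest of the comparison. Cyp51 rose by 0.73 ± 0.09, Msmo1 by 0.84 ± 0.14 and Hsd17b7 by 0.72 ± 0.09. Acat2, the cytosolic thiolase that feeds the pathway with acetoacetyl-CoA, rose by 1.02 ± 0.14, and its adjusted p was 0.000107.

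The control genes of the pathway differed from each other. Insig1, the retention factor that is itself a target of SREBP, stood at 57.2, 76.3 and 54.1 CPM and then at 125, 124 and 117 CPM (0.97 ± 0.11, adjusted p = 4.42e-06). The groups of Insig1 did not overlap. Srebf2, which encodes SREBP2, stood at 125, 80.6 and 150 CPM and then at 155, 93.1 and 185 CPM. Its replicates were far apart and its groups overlapped (0.28 ± 0.36, adjusted p = 1), although each of the 3 same-numbered pairs was higher at 24 h. Mvk, Fdps and Dhcr7 were also without a call, with adjusted p of 0.096, 0.0649 and 0.057, and were called with the block.

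**Figure D2:**
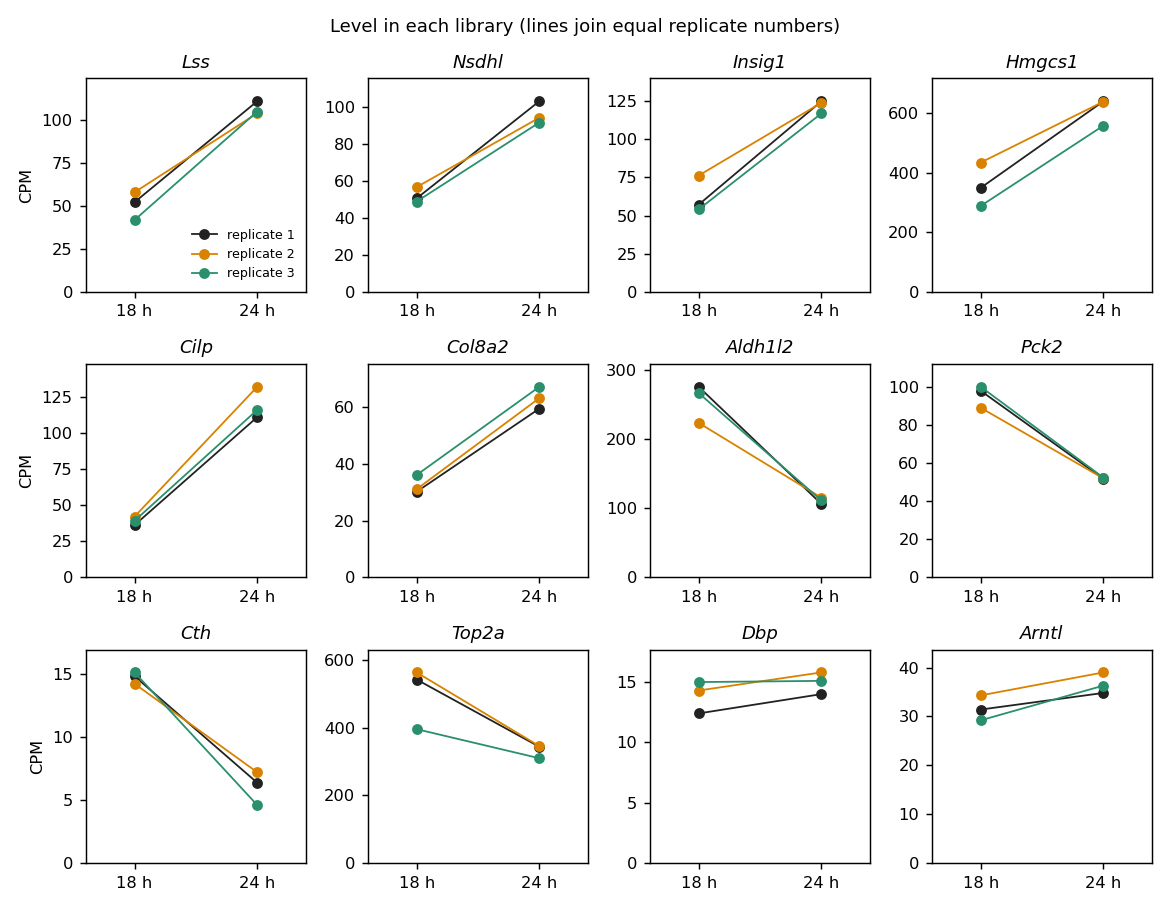
Level in CPM (vertical axis, from 0) of 12 genes in each of the 3 libraries at 18 h and at 24 h, with lines joining equal replicate numbers. The 3 lines of Lss, Nsdhl, Insig1 and Hmgcs1 all rise, those of Aldh1l2, Pck2, Cth and Top2a all fall, and those of the clock genes Dbp and Arntl move by less than these.

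Promoter windows were searched for the sterol regulatory element, spelled TCACNCCAC and read on both strands, from 250 bases before to 50 bases after each RefSeq start (GRCm38.p6). The element was present in 1.07% of 9972 tested genes with a promoter and in 1 of the 14 called cholesterol genes that had one, Hmgcs1. Its stretch from 182 to 83 bases before the start is shown because it holds the only match among them. The match is in capitals (chr13:119690169-119690268, plus strand).
Hmgcs1: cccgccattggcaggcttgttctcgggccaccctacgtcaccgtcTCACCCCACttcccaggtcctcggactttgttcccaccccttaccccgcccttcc
A match is a description of letters, and the other 13 promoters only lack these letters in this window.

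Fatty acid synthesis is under the related factor SREBP1. Of 17 tested genes on this list 8 rose, against 0.977% of all genes, and none fell. The median was 0.31 on the log2 scale, and 12 were called with the block. In the 6 libraries alone none was called, and 12 with the block in that fit. Acly, which makes cytosolic acetyl-CoA from citrate, stood at 249, 266 and 243 CPM and then at 365, 345 and 355 CPM (0.49 ± 0.05, adjusted p = 3.61e-06). Elovl6, the elongase of long saturated chains, stood at 33.8, 33.5 and 26.4 CPM and then at 56.8, 52.5 and 51.3 CPM (0.77 ± 0.08, adjusted p = 1.19e-06). The replicates of both genes were tight and their groups well apart. The desaturase Scd2 rose by 0.68 ± 0.11 and the desaturase Fads2 by 0.52 ± 0.08. Scd1, Srebf1, Fads1 and Elovl5 were not called (log2 values of 0.30, 0.26, 0.34 and 0.19), but passed with the block. The count was 5 without any 1 of the 3 libraries of 18 h or without replicate 1 of 24 h.

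ATF4 is a transcription factor whose translation goes up when amino acids are short or other stresses block translation initiation. It switches on amino acid synthesis, one-carbon metabolism in mitochondria, amino acid transporters and tRNA synthetases, through amino acid response elements in their promoters. Of the 31 tested genes on this list 12 fell, against 0.883% of all genes, and none rose. The median was -0.43, 29 of 31 fold changes were negative, and 15 genes had all 24 h libraries below all 18 h libraries, against 5.41% of all genes. With the block 22 members were called, and in the 6 libraries alone 3. With the block in that smaller fit 23 of 30 tested members were lower and 1 higher. The same-numbered pairs differed in size: the median of the list was -0.54 in pair 1, -0.13 in pair 2 and -0.61 in pair 3.

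Called members included mitochondrial and serine enzymes. Aldh1l2, which oxidises formyl-tetrahydrofolate in mitochondria (chromosome 10, 83487450 to 83534140, minus strand), stood at 275, 223 and 266 CPM at 18 h and at 106, 115 and 111 CPM at 24 h, a 2.30-fold fall (-1.20 ± 0.11, adjusted p = 3.94e-07). Pck2, the mitochondrial phosphoenolpyruvate carboxykinase (chromosome 14, 55540266 to 55551242, plus strand), stood at 97.8, 88.9 and 99.9 CPM and then at 51.7, 51.9 and 52.3 CPM (-0.88 ± 0.08, adjusted p = 1.71e-07). The 24 h libraries of Pck2 were nearly equal and far below the lowest 18 h library. Psph, which completes serine synthesis, went from 37.9, 36.3 and 41.6 CPM to 24.6, 27.1 and 22.7 CPM (-0.64 ± 0.08). Its partner Psat1 fell by 0.32 on the log2 scale, a call lost without replicate 1 of 18 h or replicate 1 or 3 of 24 h (adjusted p between 0.0533 and 0.0761), and Shmt2, which passes the serine carbon to folate, by 0.56.

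Genes of sulfur amino acids, transport and feedback fell as well. Cth, which makes cysteine from cystathionine, stood at 14.8, 14.2 and 15.1 CPM and then at 6.36, 7.19 and 4.59 CPM (-1.28 ± 0.17, adjusted p = 6.22e-05). Slc7a11, the cystine importer, stood at 16.9, 10.2 and 12.1 CPM and then at 4.83, 6.52 and 6.36 CPM (-1.15 ± 0.18, adjusted p = 0.00053). Trib3, a pseudokinase that feeds back on ATF4, stood at 17.2, 18.6 and 26.2 CPM and then at 8.67, 13.8 and 10.1 CPM (-0.93 ± 0.15). No groups of these 3 genes overlapped, and the pair 2 difference was the smallest of the 3 pairs in each. Asns, asparagine synthetase, fell by 0.62 on the log2 scale, the lipoprotein receptor Vldlr by 0.98 and the alanyl-tRNA synthetase Aars by 0.46. Atf4 itself stood at 301, 288 and 330 CPM and then at 271, 292 and 281 CPM, with overlapping groups and no call (-0.12 ± 0.06, adjusted p = 0.588). Ddit4 (0.32 ± 0.11) and Cebpb (0.05 ± 0.19) were the 2 members with positive values, both without a call.

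The amino acid response element, spelled TGATGNAA and read on both strands, lay in the promoter windows of 5 of the 10 called genes of this list that had a promoter and of 9 of all 27 tested members that had one. Of the 9972 tested genes with a promoter 2.25% held it. Of the 85 lower genes with one 9 (10.6%) held it, and these 9 include the 5 called genes of this list. Of these 5 genes 4 have a match before the start, and 100 bases of each are shown so that the elements can be compared, each read along the gene's own strand with matches in capitals. They lie at chr14:55540118-55540217 (plus strand), chr3:50443614-50443713 (minus), chr8:111033685-111033784 (plus) and chr6:7693210-7693309 (minus) on GRCm38.p6, in the order given.
Pck2: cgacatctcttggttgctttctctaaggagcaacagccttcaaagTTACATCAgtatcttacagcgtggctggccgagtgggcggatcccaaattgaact
Slc7a11: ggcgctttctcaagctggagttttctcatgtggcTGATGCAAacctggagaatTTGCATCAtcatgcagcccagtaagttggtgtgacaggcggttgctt
Aars: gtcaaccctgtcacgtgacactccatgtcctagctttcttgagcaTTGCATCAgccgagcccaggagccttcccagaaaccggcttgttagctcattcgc
Asns: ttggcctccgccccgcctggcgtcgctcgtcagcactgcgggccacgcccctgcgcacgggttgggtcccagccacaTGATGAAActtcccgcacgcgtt
The match of Pck2 begins 103 bases before the start, the first of Aars 112 and that of Asns 23, and Slc7a11 holds 2 facing matches that begin 66 and 47 bases before it. The match of the fifth gene, Trib3, lies after its start, as does a second match of Aars.

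Genes of mitosis and the spindle are expressed in dividing cells, which in a differentiating culture are those that have not fused. Of 25 tested genes 7 fell, against 0.883% of all genes, none rose, and the median was -0.30. With the block 15 were called. In the 6 libraries alone none was called, and 15 with the block in that fit. All 25 fold changes were negative, and 10 genes had all 24 h libraries below all 18 h libraries, against 5.41% of all genes. Top2a, which untangles replicated chromosomes, stood at 543, 564 and 396 CPM at 18 h and at 344, 346 and 310 CPM at 24 h (-0.59 ± 0.10, adjusted p = 0.00112). The 18 h libraries spread widely, with replicate 3 lowest, while the 24 h libraries were close together. Nusap1, a spindle-associated protein, stood at 67.7, 76.1 and 55.1 CPM and then at 44.2, 40.7 and 43.4 CPM (-0.63 ± 0.09, adjusted p = 0.000261). Aurkb, the kinase of the chromosomal passenger complex, went from 39.7, 40.8 and 32.8 CPM to 26.0, 24.9 and 25.0 CPM (-0.58 ± 0.10). Ccna2, cyclin A2, fell by 0.38 on the log2 scale, and Kif11, Kif23 and Cenpf were the other 3 called. These 3 lost their call when any of 3, 2 and 5 of the 6 libraries was left out (adjusted p between 0.0564 and 0.299). Mki67, Plk1 and Aurka had log2 values of -0.32, -0.29 and -0.37 and no call, and were called with the block.

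The count of called mitosis genes moved with single libraries. Without replicate 2 of 18 h or replicate 3 of 24 h 4 members were called, without replicate 3 of 18 h 12, and without the 9 libraries numbered 2 only 2. Pair 3 had the smallest difference, with a median of -0.13 against -0.26 in pair 1 and -0.46 in pair 2. Among 28 tested genes of DNA replication, Tk1, thymidine kinase, was the only one called (-0.37, adjusted p = 0.035), and the median was -0.03. Its call was lost without any 1 of the 6 libraries (adjusted p between 0.0502 and 0.165). None of 17 replication-dependent histones was called by edgeR (3 at an unadjusted p under 0.05, 1 lower by DESeq2), with a median of -0.15. With the block 1 replication gene was higher and 4 were lower, and 2 histones were lower. Ccnd1, the cyclin of early G1, stood at 116, 117 and 108 CPM and then at 88.1, 91.3 and 86.0 CPM, without overlap (-0.36 ± 0.06, adjusted p = 0.000446).

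A matrix gene had the largest rise among called genes of at least 1 CPM. Cilp, a secreted cartilage intermediate layer protein (chromosome 9, 65265180 to 65280605, plus strand), stood at 36.2, 42.1 and 39.2 CPM at 18 h and at 111, 132 and 116 CPM at 24 h, a 3.05-fold rise (1.61 ± 0.11, adjusted p = 8.95e-09). The pairs gave log2 differences of 1.61, 1.65 and 1.56, so the libraries agreed closely. Col8a2, a short-chain collagen, stood at 30.2, 31.1 and 36.1 CPM and then at 59.5, 63.2 and 67.2 CPM (0.96 ± 0.08, adjusted p = 1.71e-07). Angpt4, an angiopoietin that binds the TIE2 receptor, stood at 25.7, 26.2 and 24.1 CPM and then at 48.9, 49.7 and 48.2 CPM (0.95 ± 0.07, adjusted p = 8.95e-09). None of these 3 had overlapping groups.

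The list of collagens and matrix proteins had a small median change of 0.11. Of 35 tested members 5 rose, against 0.977% of all genes, and none fell. In 11 of the 35 every 24 h library lay above every 18 h library, against 5.07% of all genes. In 1 every 24 h library lay below, against 5.41%. With the block 7 were higher and 1 lower. In the 6 libraries alone 1 was higher, and with the block in that fit 11 were higher and 1 lower. The 5 were Col8a2, Col11a1 (0.69 ± 0.12), Col12a1 (0.65 ± 0.15), Thbs2 (0.25 ± 0.06) and Fmod (1.14 ± 0.29), a collagen-binding proteoglycan at 0.991, 0.877 and 0.722 CPM and then at 1.98, 1.35 and 2.39 CPM. The main fibrillar collagens Col1a1, Col1a2 and Col3a1 had log2 values of 0.06, 0.03 and 0.10 and overlapping groups. Col12a1, Thbs2 and Fmod each lost their call when any of 4 or 5 of the 6 libraries was left out (adjusted p between 0.067 and 0.241). The list held 2 calls without replicate 1 of 18 h, replicate 1 of 24 h or replicate 3 of 24 h, and 3 without replicate 2 of 18 h or the 9 libraries numbered 2. The 7 fibroblast markers summed to 242 to 271 CPM at 18 h and to 294 to 309 CPM at 24 h. Most of this sum was Ly6a, with means of 222 and 257 CPM and no call. All 5 tested markers had positive fold changes, 1 of them, Pdgfra, rose (0.40), and Thy1 and Tcf21 had no read. The call of Pdgfra was lost without replicate 3 of 18 h or replicate 1 of 24 h (adjusted p between 0.0506 and 0.0648). The part of the fibroblast markers in the rise of matrix genes was not tested.

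Hypoxia-inducible factors switch on glycolytic and mitochondria-sparing genes when oxygen is low. Of 18 tested targets 4 rose, against 0.977% of all genes, and none fell. The median was 0.17, and with the block 6 were higher and 1 lower. In the 6 libraries alone none was called, and with the block in that fit 6 were higher. Slc16a3, the lactate exporter, stood at 14.2, 19.6 and 15 CPM and then at 26.0, 28.5 and 26.9 CPM (0.74 ± 0.13, adjusted p = 0.00204). Pdk1, which shuts pyruvate out of mitochondria, stood at 41.2, 40.9 and 36.7 CPM and then at 55.1, 54.4 and 51.6 CPM (0.44 ± 0.08, adjusted p = 0.00179). The groups of both genes were apart. Ak4, a mitochondrial adenylate kinase, went from 1.67, 2.24 and 1.55 CPM to 4.58, 4.14 and 3.64 CPM (1.18 ± 0.22, adjusted p = 0.00351), and Bnip3, a mitophagy receptor, rose by 0.54 ± 0.12. The call of Bnip3 was lost without replicate 3 of 18 h or replicate 1 or 2 of 24 h (adjusted p between 0.0878 and 0.124). Without the 9 libraries numbered 2 the count of the list was 2. Vegfa, Egln1 and Ndrg1 had log2 values of -0.09, 0.04 and 0.02. None of 23 glycolysis and glycogen genes was called by edgeR (8 at an unadjusted p under 0.05, 1 higher by DESeq2), while 6 were higher and 1 lower with the block.

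The circadian clock is a feedback loop in which ARNTL and CLOCK drive the Per and Cry genes, whose products repress them. No gene of the 20 on the clock list was called between 18 h and 24 h, with log2 values from -0.34 to 0.61 and a median of 0.12. By edgeR 3 had an unadjusted p under 0.05, and DESeq2 and limma-voom called none. With the replicate block 2 members were higher. Cry1 stood at 21.9, 24.2 and 23.3 CPM at 18 h and at 27, 29.3 and 26.6 CPM at 24 h, without overlap (0.26 ± 0.08, adjusted p = 0.102, and 0.0179 with the block). Arntl stood at 31.4, 34.3 and 29.2 CPM and then at 34.8, 39.0 and 36.3 CPM, also without overlap (0.21 ± 0.10, adjusted p = 0.481, and 0.0383 with the block). Same-numbered pairs of both genes differed in the same direction.

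Among other genes of the loop, 4 had overlapping groups as follows. Per2 stood at 10.6, 11.8 and 14.9 CPM and then at 15.5, 13.2 and 16.3 CPM (0.28 ± 0.16, adjusted p = 0.703), and Per1 at 11.8, 8.43 and 14.8 CPM and then at 11.8, 8.02 and 13.5 CPM (-0.06 ± 0.28). Nr1d1, the repressor REV-ERB alpha, ranged from 6.58 to 16.9 CPM at 18 h and from 4.76 to 13.3 CPM at 24 h, with replicate 2 lowest at both times. Dbp, an output gene of the loop, stood at 12.4, 14.3 and 15 CPM and then at 14, 15.8 and 15.1 CPM. Its change was 0.10 ± 0.09. For Nr1d1 the change was -0.34 with a standard error of 0.40, and a change of that size was not detectable in this fit.

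Interferon-stimulated genes leaned down without a call. Of 28 tested genes of the type I interferon response none passed, although 27 fold changes were negative and the median was -0.43. By edgeR 7 had an unadjusted p under 0.05, and DESeq2 and limma-voom called none. With the block 1 member was lower, as was 1 without replicate 3 of 18 h. In the 6 libraries alone with the block 7 of 25 tested members were lower. All 24 h libraries lay below all 18 h libraries in 9 of them, against 5.41% of all genes. Ifi44 stood at 5.32, 4.39 and 2.42 CPM and then at 1.98, 1.81 and 1.67 CPM (-1.15 ± 0.34, adjusted p = 0.101, and 0.0223 with the block). At 18 h replicate 3 was the lowest library for Ifi44, and its groups did not overlap. The median of the list within pairs was -0.40, -0.48 and -0.09. The interferon-stimulated response element, searched on both strands, lay in 13 of the 21 promoters of these genes, against 2.97% of tested genes. Tap1, the peptide transporter of antigen presentation, fell by 0.67 on the log2 scale (adjusted p = 0.0433), and the call was lost without any 1 of 5 of the 6 libraries (adjusted p between 0.0744 and 0.247).

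Signalling genes changed one at a time. Grem1, a secreted antagonist of bone morphogenetic proteins, stood at 121, 110 and 117 CPM and then at 82.6, 68.1 and 75.4 CPM (-0.62 ± 0.08, adjusted p = 2.64e-05), and Id3, a target of the same ligands, at 22.9, 21.7 and 24.0 CPM and then at 32.4, 35.6 and 36.1 CPM (0.60 ± 0.10, adjusted p = 0.00113). These were the 2 calls among 19 genes of the TGF beta, BMP and activin list, of which 3 were higher and 1 lower with the block. Nkd2, a feedback inhibitor of Wnt signalling, stood at 21.3, 21.3 and 21.2 CPM and then at 31.6, 36.7 and 38.4 CPM (0.74 ± 0.08, adjusted p = 1.66e-06) and was the single call among 21 Wnt genes. Ereg, an EGF-family ligand, fell by 0.64 on the log2 scale. Angptl4, which blocks lipoprotein lipase, stood at 57.9, 57.5 and 65.9 CPM and then at 39.4, 41.8 and 41.2 CPM (-0.57 ± 0.09). Cxcl14, a chemokine, rose by 0.96 ± 0.16. Igfbp4, an IGF-binding protein (0.67, adjusted p = 0.0173), and Glul, glutamine synthetase (0.24, adjusted p = 0.0189), lost their call when any of 4 of the 6 libraries was left out (adjusted p between 0.0735 and 0.144). With the block 3 of the 12 genes of the IGF system were higher, 2 of the 17 ERK feedback genes and EGF-family ligands lower, and 4 of the 12 CDK inhibitors, pocket proteins and D cyclins lower, in place of 1 each. Of the 11 glucocorticoid targets, 2 were higher and 1 lower with the block.

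Genes of the contractile programme of myotubes were rarely called. Of 32 sarcomere genes 1 fell, Mybpc2, a fast myosin-binding protein, which stood at 81.5, 82.4 and 89.4 CPM and then at 64.4, 68.6 and 70.5 CPM (-0.32 ± 0.06, adjusted p = 0.00296). The median of the list was -0.03, and with the block 2 members were lower. No gene was called among 13 myogenic transcription factors, 12 genes of fusion and adhesion, 15 of the triad and calcium handling or 13 of the acetylcholine receptor and postsynapse, with medians of 0.08, 0.02, 0.02 and 0.13. Likewise none was called among 36 cytosolic ribosomal proteins (median 0.01), 28 respiratory chain subunits (0.04), 21 genes of the unfolded protein response (-0.01), 16 heat shock chaperones (0), 23 immediate early genes (-0.04) or 12 Notch genes (0.07). Over these 10 lists, edgeR gave 13 genes an unadjusted p under 0.05, and DESeq2 called 1, a triad gene that was lower. With the block 2 triad genes and 1 immediate early gene were lower, and 1 postsynaptic gene and 2 Notch genes were higher. The absence of a call does not show that these genes were equal at both times.

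**Figure D3:**
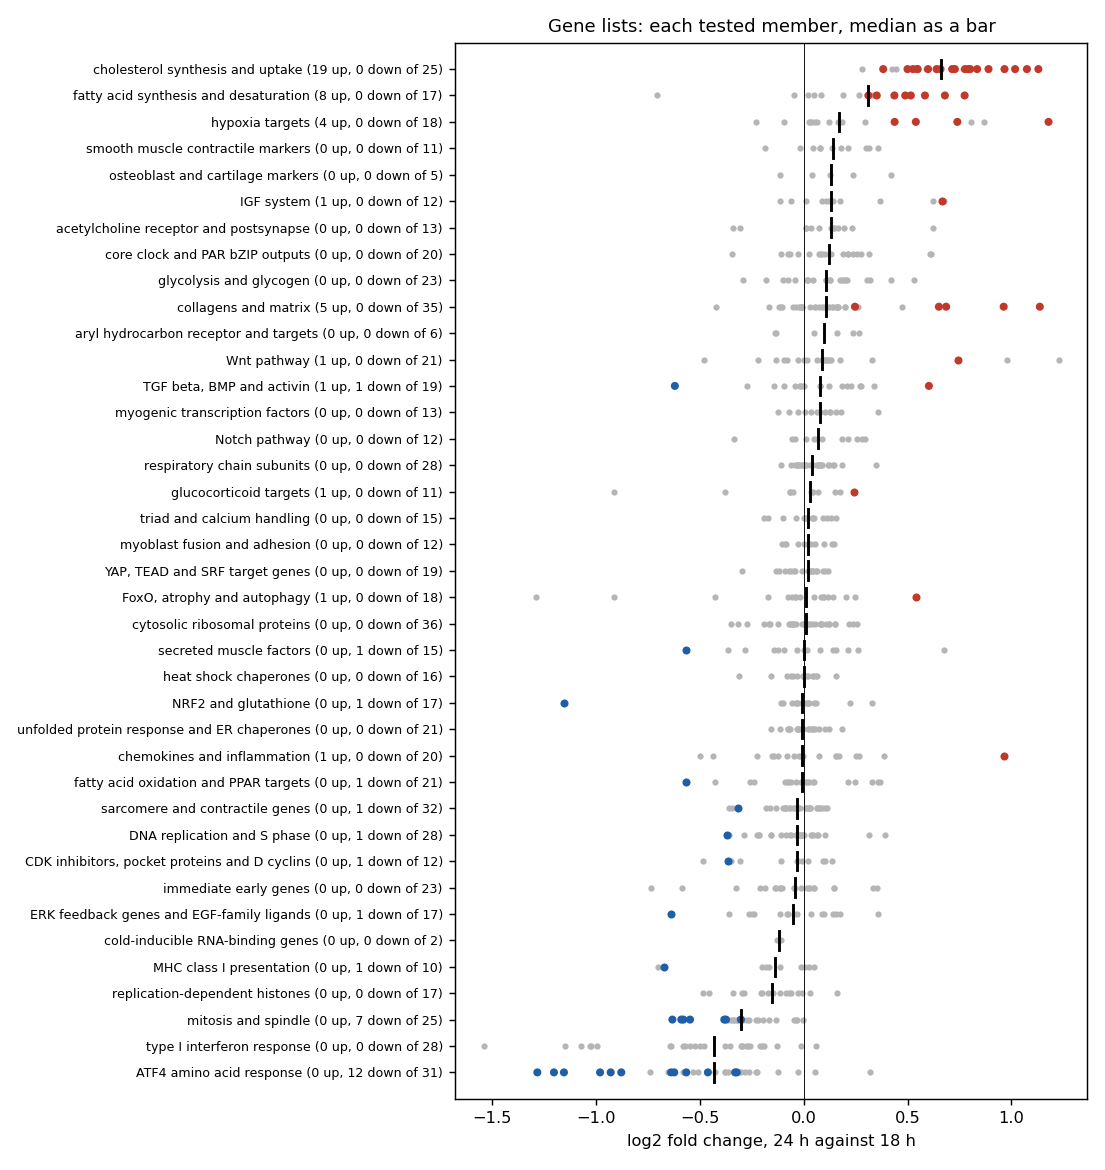
Log2 fold change from 18 h to 24 h (horizontal axis) of each tested member of 39 gene lists (rows, ordered by median, which is the black bar), with called genes red when higher, blue when lower and the others grey. The cholesterol list sits highest with 19 of 25 called, and the ATF4 and interferon lists lowest, with 12 of 31 and none of 28 called.

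Several of the genes with the largest changes belong to none of these groups. Among the rises were Tmem204, a membrane protein of endothelial junctions (1.16 ± 0.22), Ramp2, which makes a receptor for adrenomedullin (1.14 ± 0.23), Spats2l (1.14 ± 0.20) and Ackr4, a scavenging chemokine receptor (1.05 ± 0.17). Levels of these 4 were low, with Tmem204 at 0.541 to 0.825 CPM and then at 1.34 to 1.81 CPM, and the call of Tmem204 was lost without the 9 libraries numbered 2 (adjusted p = 0.0622). The largest fall among called genes of at least 1 CPM was that of Car6, a secreted carbonic anhydrase, from 6.94, 5.41 and 4.54 CPM to 2.48, 2.48 and 1.48 CPM (-1.39 ± 0.21, adjusted p = 0.000446). Avil, an actin-binding protein, fell by 0.95 on the log2 scale. Chd5, Atp2a3, Slamf9 and Odf3l1, none above 6.14 CPM in any of the 6 libraries, had log2 values of -1.12, -1.11, -0.99 and -0.91. Each lost its call when any of 4 or 5 of the 6 libraries was left out (adjusted p between 0.0502 and 0.271).

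The same 6 h interval was then set beside 2 later ones that share no library with it. The step from 42 h to 48 h covers the same part of a 24 h cycle 1 day later, and the step from 30 h to 36 h the opposite part. Far fewer genes were called in these: 7 higher (0.0552%) and 10 lower (0.0788%) from 42 h to 48 h, and 17 higher (0.134%) and 7 lower (0.0552%) from 30 h to 36 h. The 124 and 112 genes were picked by their change from 18 h to 24 h, so their medians here are larger in size by selection. Of the 124 genes that rose here 5 were higher and none lower from 42 h to 48 h, with a median of 0.06 against 0.56 here. From 30 h to 36 h 6 were higher and 1 lower, with a median of 0.15. Of the 112 genes that fell here, 2 were lower and none higher from 42 h to 48 h and 1 lower and 3 higher from 30 h to 36 h, with medians of 0.05 and 0.11 against -0.46 here. Positive values made up 74.2% and 81.5% of the genes that rose here and 63.4% and 67% of those that fell, against 50.5% and 48.8% of all genes.

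**Figure D4:**
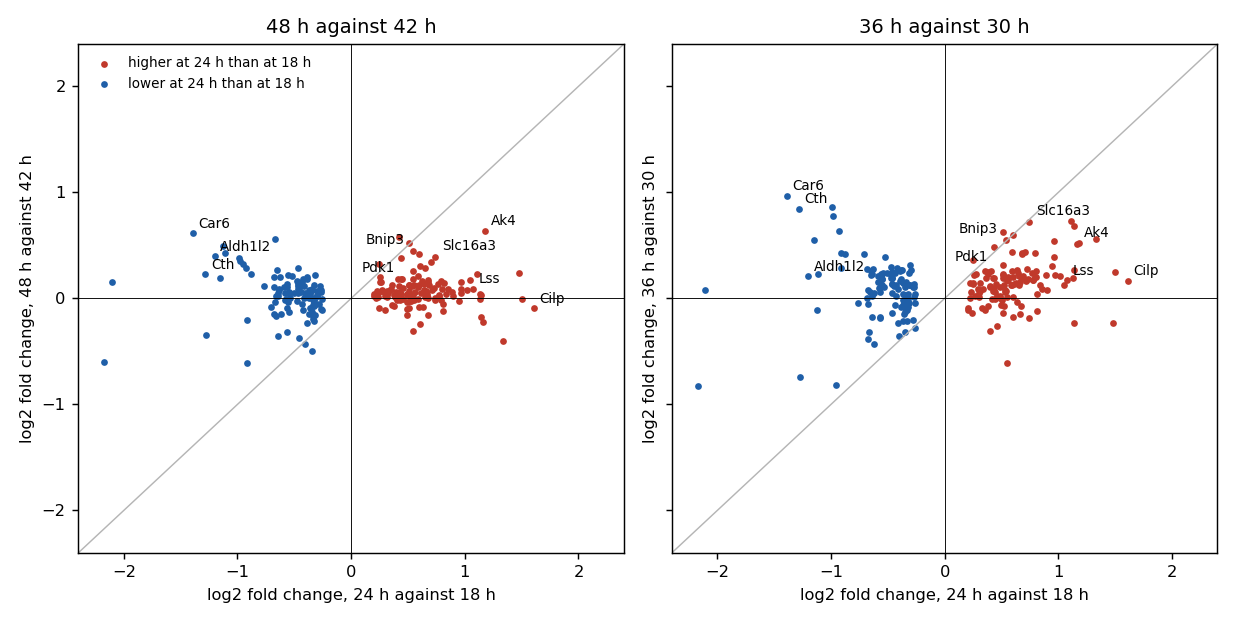
Log2 fold change of the 236 called genes from 18 h to 24 h (horizontal axes) against that from 42 h to 48 h (left) and from 30 h to 36 h (right), with genes that rose red and genes that fell blue; the grey line marks equal values. The genes were picked by the values on the horizontal axes. Most points lie near 0 on the vertical axes, with medians of 0.06 and 0.15 for the red points and 0.05 and 0.11 for the blue ones.

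The differences between intervals were tested as contrasts of the same fit. The change from 18 h to 24 h differed from that of 42 h to 48 h in 79 genes (0.623%) and from that of 30 h to 36 h in 97 genes (0.765%), and with the block in 285 and 350. Among the 25 cholesterol genes 12 differed from the first and 6 from the second, and 22 and 18 with the block. Lss changed by 0.09 ± 0.09 from 42 h to 48 h, a difference of 0.98 ± 0.12 (adjusted p = 8.41e-05). Among the 31 ATF4 genes 11 differed from each, and 18 and 19 with the block. Aldh1l2 changed by 0.40 ± 0.11 from 42 h to 48 h, a difference of -1.60 ± 0.16 (adjusted p = 2.66e-06), and Cth by 0.85 ± 0.16 from 30 h to 36 h, a difference of -2.13 ± 0.24 (adjusted p = 2.31e-05). Both genes thus had values of the opposite sign in the later interval. Of the mitosis genes 9 differed from 30 h to 36 h and 2 from 42 h to 48 h, and 19 and 11 with the block. The count of 79 fell to 46 without replicate 1 of 18 h, to 49 without replicate 1 of 24 h, to 44 or 46 without replicate 1 or 2 of 42 h, to 52 or 47 without replicate 1 or 3 of 48 h and to 40 without the 9 libraries numbered 2, which also gave 33 in place of 97.

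For the clock and hypoxia lists few differences were called. No clock gene differed between 18 h to 24 h and 42 h to 48 h, and 1, Cry1, differed from 30 h to 36 h, where it changed by -0.40 ± 0.08 (difference 0.66 ± 0.11, adjusted p = 0.00213). With the block 3 clock genes differed from that interval. None of the 4 hypoxia targets that rose here differed from either later interval. Pdk1 changed by 0.38 ± 0.08 from 42 h to 48 h (adjusted p = 0.0448) and by 0.49 ± 0.08 from 30 h to 36 h (adjusted p = 0.00438), and was called in all 3 intervals. Its mean level was 39.6 ± 2.53 CPM at 18 h (SD, n = 3 libraries) and 53.7 ± 1.87 at 24 h, then 49.1, 68.9, 49.6, 64.7, 44.7 and 66.4 CPM from 30 h to 60 h. It was thus lower at 18 h, 30 h, 42 h and 54 h than at the time point after each.

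Levels over the whole course place the interval. Lss stood at a mean of 36.0 ± 0.461 CPM at 12 h (SD, n = 3), 50.7 ± 8.23 at 18 h and 107 ± 3.28 at 24 h, and between 118 and 150 CPM from 30 h on. Cilp went from 16.1 ± 3.03 CPM at 12 h through 39.2 ± 2.97 and 120 ± 11.1 to 152 ± 6.02 CPM at 36 h and stood at 101 ± 7.52 CPM at 60 h. Aldh1l2 went from 404 ± 33.2 CPM at 12 h through 255 ± 27.9 at 18 h and 111 ± 4.55 at 24 h to 66.2 ± 5.78 CPM at 30 h, and was back at 135 ± 10.6 CPM at 60 h. For these 3 genes the 18 h mean lay between those of 12 h and 24 h. Top2a differed: its mean was 341 ± 25.9 CPM at 12 h, 501 ± 91.2 CPM at 18 h and 333 ± 20.2 CPM at 24 h, and no other time point had a mean as high as 18 h.

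**Figure D5:**
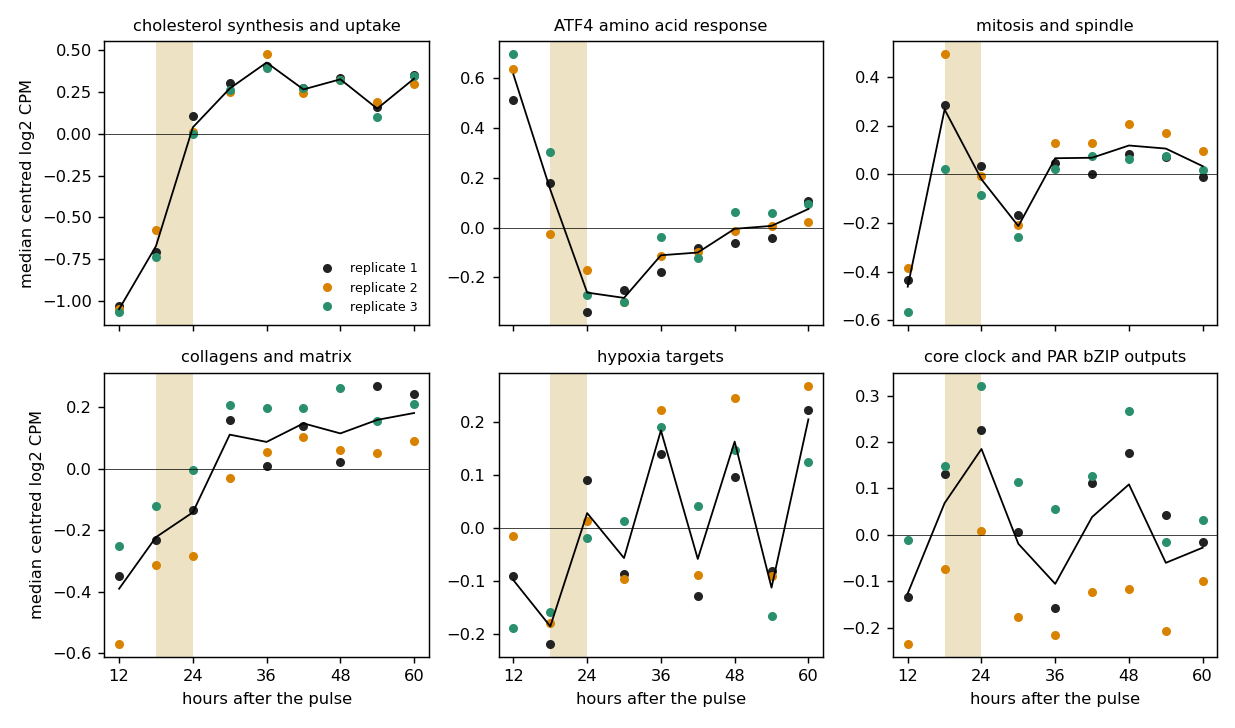
Median over the members of 6 gene lists of the log2 level, centred on each gene's mean over the 27 libraries (vertical axes), against hours after the pulse (horizontal axes); points are libraries coloured by replicate number, the line is their mean and the band marks 18 h to 24 h. Cholesterol genes went from -0.67 at 18 h to 0.04 at 24 h, ATF4 genes from 0.15 to -0.26 and mitosis genes from 0.27 to -0.02.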

How the data were processed

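The values deposited by the authors are raw counts, whole numbers of reads per gene, for 20446 genes in 27 libraries (9 time points, 3 libraries each). Trim Galore 0.4.0, cutadapt 1.9.1, featureCounts and the mm10 build were used, per the submitters' processing notes. Not given in the sources used here are the aligner, the annotation and whether the counting was by strand. Names and positions came from GENCODE M21 on the same build (20327 genes matched, 119 did not), promoters from RefSeq (GRCm38.p6, 15932 genes).

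The filterByExpr function of edgeR (minimum count 10) selected the genes to test (12687 kept, 7759 left out, of which 3717 had no read). Counts were scaled by TMM and fitted over all 27 libraries with time as a factor (edgeR 4.0.16, R 4.3.3, quasi-likelihood F test, 18 residual degrees of freedom), with Benjamini-Hochberg adjustment over all genes tested. Levels are CPM, fold changes are log2 values with the standard error of the fit. The biological coefficient of variation was 11.8%, and the 27 libraries held from 15187400 to 26615773 reads. No 2 replicates of 18 h or of 24 h agreed within sampling noise. Same-numbered libraries of 18 h and 24 h deviated together (correlations across genes of 0.308, 0.589 and 0.41), so the replicate number was taken to pair them, and fits with it as a block are given beside the main lists.

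Named genes were the 12 largest rises and falls among called genes of at least 1 CPM whose groups did not overlap, all tested clock genes, up to 4 members of each list by p, and for the differences between intervals the 6 smallest p. Members and lists were chosen with earlier results of these data known, so list counts are descriptions. Some genes that the rule selects are not reported here. Alternatives were DESeq2 1.42.0, limma 3.58.1 (voom), other scaling and filters, an adjusted p under 0.01, the block, the 6 libraries alone and leaving out each library. Leaving out the 9 libraries numbered 2 was added after seeing the data.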

Additional observations from a re-analysis of the deposited data

Results flagged for a closer look

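For 9 genes the change from 18 h to 24 h differed from the change in a later 6 h interval by a tested contrast (edgeR's quasi-likelihood test, adjusted over 12687 genes), and these had the smallest p among genes of at least 1 CPM. Differences are on the log2 scale, as the value here minus the value there.

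Against 42 h to 48 h, Cilp differed by 1.70 ± 0.16 SE, Angpt4 by 0.98 ± 0.10, Lss by 0.98 ± 0.12 and Nsdhl by 0.83 ± 0.09, each with a larger rise here. Aldh1l2 differed by -1.60 ± 0.16 and Pck2 by -1.11 ± 0.11, each lower at 24 h than at 18 h and with a positive value, not called, from 42 h to 48 h (0.40 and 0.23). Adjusted p was 2.66e-06 for Cilp, Angpt4, Aldh1l2 and Pck2.

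Against 30 h to 36 h, Cilp differed by 1.44 ± 0.16 and Nkd2 by 0.93 ± 0.11. Cth differed by -2.13 ± 0.24, Vldlr by -1.76 ± 0.21, Aldh1l2 by -1.41 ± 0.16 and Pck2 by -1.29 ± 0.11. Of these 4 ATF4 targets, Cth, Vldlr and Pck2 were called higher at 36 h than at 30 h (0.85, 0.78 and 0.42 on the log2 scale) after being called lower at 24 h than at 18 h.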

How the results depend on the processing

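The counts of 124 higher and 112 lower genes were within 1.5 times of the values from DESeq2, a stricter filter, limma-voom, scaling by the median of ratios and no low-count filter. They were 354 and 321 with the replicate block, which all 236 calls passed, 70 and 54 at an adjusted p under 0.01, 9 and 3 in the 6 libraries alone, 441 and 372 in the 6 libraries alone with the replicate block, and 82 and 54 without the 9 libraries numbered 2. Leaving out 1 library at a time gave 73 to 102 higher and 60 to 115 lower genes. Genes that differed from 42 h to 48 h (79) became 285 with the block, 30 at an adjusted p under 0.01, 40 without the libraries numbered 2 and 44 to 88 with 1 library left out; those that differed from 30 h to 36 h (97) became 350, 50, 33 and 67 to 137, and 163 with DESeq2. Of the 236 called genes, 98 kept the call without any 1 of the 6 libraries and 138 lost it without at least 1. Of the clock genes, none of which was called, 8 changed sign when 1 library was left out, with ranges of -0.02 to 0.09 (Clock), -0.15 to 0.45 (Npas2), -0.25 to 0.14 (Per1), -0.21 to 0.04 (Cry2), -0.06 to 0.21 (Rora), -0.1 to 0.02 (Nfil3), -0.05 to 0.22 (Bhlhe40) and -0.03 to 0.29 (Ciart). With 3 libraries per time, changes near a standard error of about 0.1 on the log2 scale are not resolved. Errors can be several times larger, for genes below 1 CPM and also for some well above it, such as Srebf2, Nr1d1 and Per1. Pairing rests on the replicate numbers and the correlations between libraries, as no label says what the numbers share.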

Other observations

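The lists in these paragraphs were put together after the values were seen, so their counts are descriptions with no test. Of 20 cytosolic aminoacyl-tRNA synthetases 8 fell between 18 h and 24 h (Aars, Cars, Eprs, Lars, Mars, Nars, Tars and Yars), none rose, and all 20 fold changes were negative or 0 at 2 decimals, with a median of -0.29 on the log2 scale. Aars, Gars and Sars are also on the ATF4 list. Calls of Cars, Eprs, Nars, Tars and Yars were each lost without replicate 1 or replicate 3 of 24 h. Those of Eprs and Tars were also lost without replicate 1 or 2 of 18 h, and that of Tars without replicate 3 of 18 h. Adjusted p in these fits of edgeR was between 0.0566 and 0.227. Of the 17 mitochondrial enzymes none was called and the median was -0.05. From 42 h to 48 h and from 30 h to 36 h the cytosolic list had medians of 0.05 and 0.05. Of 10 Fanconi anaemia genes, which act in the repair of DNA crosslinks, Fancd2, Fancg and Fanci fell (-0.55, -0.68 and -0.47), and the median was -0.25. Each of these 3 lost its call when any of 4 or 5 of the 6 libraries was left out (adjusted p between 0.054 and 0.225).

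Neighbouring genes of small leucine-rich proteins on chromosome 13 shared a direction. Ecm2 (49504810 to 49532789), Aspn (49544443 to 49567565) and Ogn (49608046 to 49624501), all on the plus strand of GRCm38, rose by 0.49, 0.81 and 0.60. Omd, which lies between Aspn and Ogn, had a value of 0.77 and an adjusted p of 0.0899. The calls of Ecm2 and Aspn were lost when any of 5 of the 6 libraries was left out and that of Ogn without replicate 3 of 18 h or replicate 1 of 24 h (adjusted p between 0.0563 and 0.219). In the later intervals the 4 genes lay between -0.12 and 0.08.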
